A study of Homo sapiens with 3 samples.

Results

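The 33 genes described here encode the enzymes and carriers that bring pyruvate into the mitochondrion, turn the tricarboxylic acid (TCA) cycle, and connect it with malate, glutamate, aspartate, alanine and proline. The members are a fixed list of gene symbols, drawn up with earlier results of these data known, and all 33 were found among the 16793 gene symbols of the series. RNA was sequenced from H446 cells, a human small cell lung cancer line, after 48 h in RPMI 1640 medium with 10% fetal bovine serum, in the presence of vehicle alone, or of 5 µM or 10 µM 3-bromoascochlorin (BAS), which is ascochlorin, a fungal compound, carrying a bromine. There were 3 libraries, 1 for each group, all from this 1 cell line, so no difference below has a replicate check and no p-value is given. Values are FPKM, which are scaled by gene length and by library size and so allow levels of different genes to be set side by side.

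The TCA cycle condenses acetyl-CoA with oxaloacetate into citrate and oxidises it stepwise, feeding electrons to the respiratory chain. Its intermediates are also drawn off for synthesis: citrate for lipids, oxaloacetate for aspartate, and 2-oxoglutarate for glutamate and proline. This traffic makes the entry and exit enzymes (pyruvate carboxylase, the PEP carboxykinases, the transaminases) points where carbon is steered. Several of the exit enzymes, among them PCK2, GPT2, PYCR1 and ALDH18A1, are known targets of ATF4, the transcription factor of the amino acid stress response.

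The libraries summed to between 487923 and 507342 FPKM. The files give no counts, so the depth behind each value is unknown. Of the small cell lung cancer markers, NEUROD1 lay between 91.62 and 104.96 FPKM and INSM1 between 72.85 and 95.14 FPKM, while YAP1 and POU2F3 were at or below 0.07 FPKM. Of the 9 markers of that list above the filter given below, 7 were above vehicle and 2 below at 10 µM. Of all genes, 56.5% were above vehicle at 10 µM. CHGA (1.91 FPKM in the vehicle library, 6.41 FPKM at the higher dose) and UCHL1 (82.21 and 176.51 FPKM) were 2-fold higher at that dose, as were 1.31% of all genes, and SYP was at 17.30 and 13.25 FPKM. Markers of cells foreign to the culture were mixed. In the order vehicle, 5 µM and 10 µM, as for every triplet of values below, the 6 fibroblast markers summed to 751, 934 and 924 FPKM, nearly all from the collagen genes COL1A1, COL1A2 and COL3A1, with DCN and LUM at or below 0.31 FPKM. The 5 immune markers summed to 4.86, 7.41 and 9.73 FPKM, led by CD68 (2.85, 6.05 and 7.34 FPKM), and the 3 endothelial markers to 58.12, 56.28 and 52.46 FPKM, led by CDH5. Their part in the differences below was not tested. In RNA from a whole culture, a lower level per cell and fewer expressing cells cannot be told apart.

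Promoter sequence is shown for 3 genes: PCK2, because it differed most between the libraries, and GOT1 and SLC25A11, because they alone of the 30 members with a promoter entry hold the motif TGATGNAA, a composite site bound by ATF4 with C/EBP proteins. The runs are the 250 bases before the RefSeq start, 5′ to 3′ on the strand of the gene, from build GRCh38.p14, with matches to the motif in capitals.

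PCK2 (chr14:24094061-24094310, plus strand): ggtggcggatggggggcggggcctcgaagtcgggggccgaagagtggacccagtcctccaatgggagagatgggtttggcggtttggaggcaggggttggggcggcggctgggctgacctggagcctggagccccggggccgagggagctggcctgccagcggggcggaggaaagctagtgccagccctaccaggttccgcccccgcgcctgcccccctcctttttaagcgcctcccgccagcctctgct
GOT1 (chr10:99430625-99430874, minus strand): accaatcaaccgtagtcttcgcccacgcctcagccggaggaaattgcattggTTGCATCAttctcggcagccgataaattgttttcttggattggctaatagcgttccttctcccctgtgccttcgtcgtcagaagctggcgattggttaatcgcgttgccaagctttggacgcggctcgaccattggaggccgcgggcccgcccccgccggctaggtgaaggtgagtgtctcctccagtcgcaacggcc
SLC25A11 (chr17:4940047-4940296, minus strand): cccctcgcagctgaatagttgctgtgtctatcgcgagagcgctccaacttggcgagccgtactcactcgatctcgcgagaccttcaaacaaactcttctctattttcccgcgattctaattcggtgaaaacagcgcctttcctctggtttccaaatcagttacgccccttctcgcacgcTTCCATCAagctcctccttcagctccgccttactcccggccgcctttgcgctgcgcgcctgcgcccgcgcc

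The motif was searched on both strands, and both matches lie on the strand opposite to the printed one, 191 to 198 bases before the start of GOT1 and 64 to 71 bases before that of SLC25A11. It occurs in 3.89% of the 27305 genes in the promoter table and in 2.29% of the 9180 of them that were compared here. The PCK2 window, with a GC content of 71.6%, does not hold these letters. The core of the site of NRF1, a regulator of many mitochondrial genes, spelled GCGCATGC, was found on either strand in 1 member, DLD, 14 to 21 bases before 1 of its 2 starts, and in 6.22% of the compared genes. GPT2, PYCR1 and OGDH have no entry. A match is a matter of letters only and shows no binding.

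The most abundant members in the vehicle library were the citrate synthase gene CS at 131.17 FPKM and the malate dehydrogenase genes MDH1 and MDH2 at 111.91 and 107.81 FPKM. The least abundant was ME3, a mitochondrial malic enzyme, listed at 0.06 FPKM with vehicle and at 0 with either dose. Genes entered the comparisons where their 3 libraries averaged 1 FPKM or more, which left 11512 genes, and differences were taken between log2(FPKM + 1) values. This filter kept 32 of the 33 members and left out ME3. A difference of at least 1 on that scale is called 2-fold, and plain ratios of FPKM are given as folds.

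**Figure D1:**
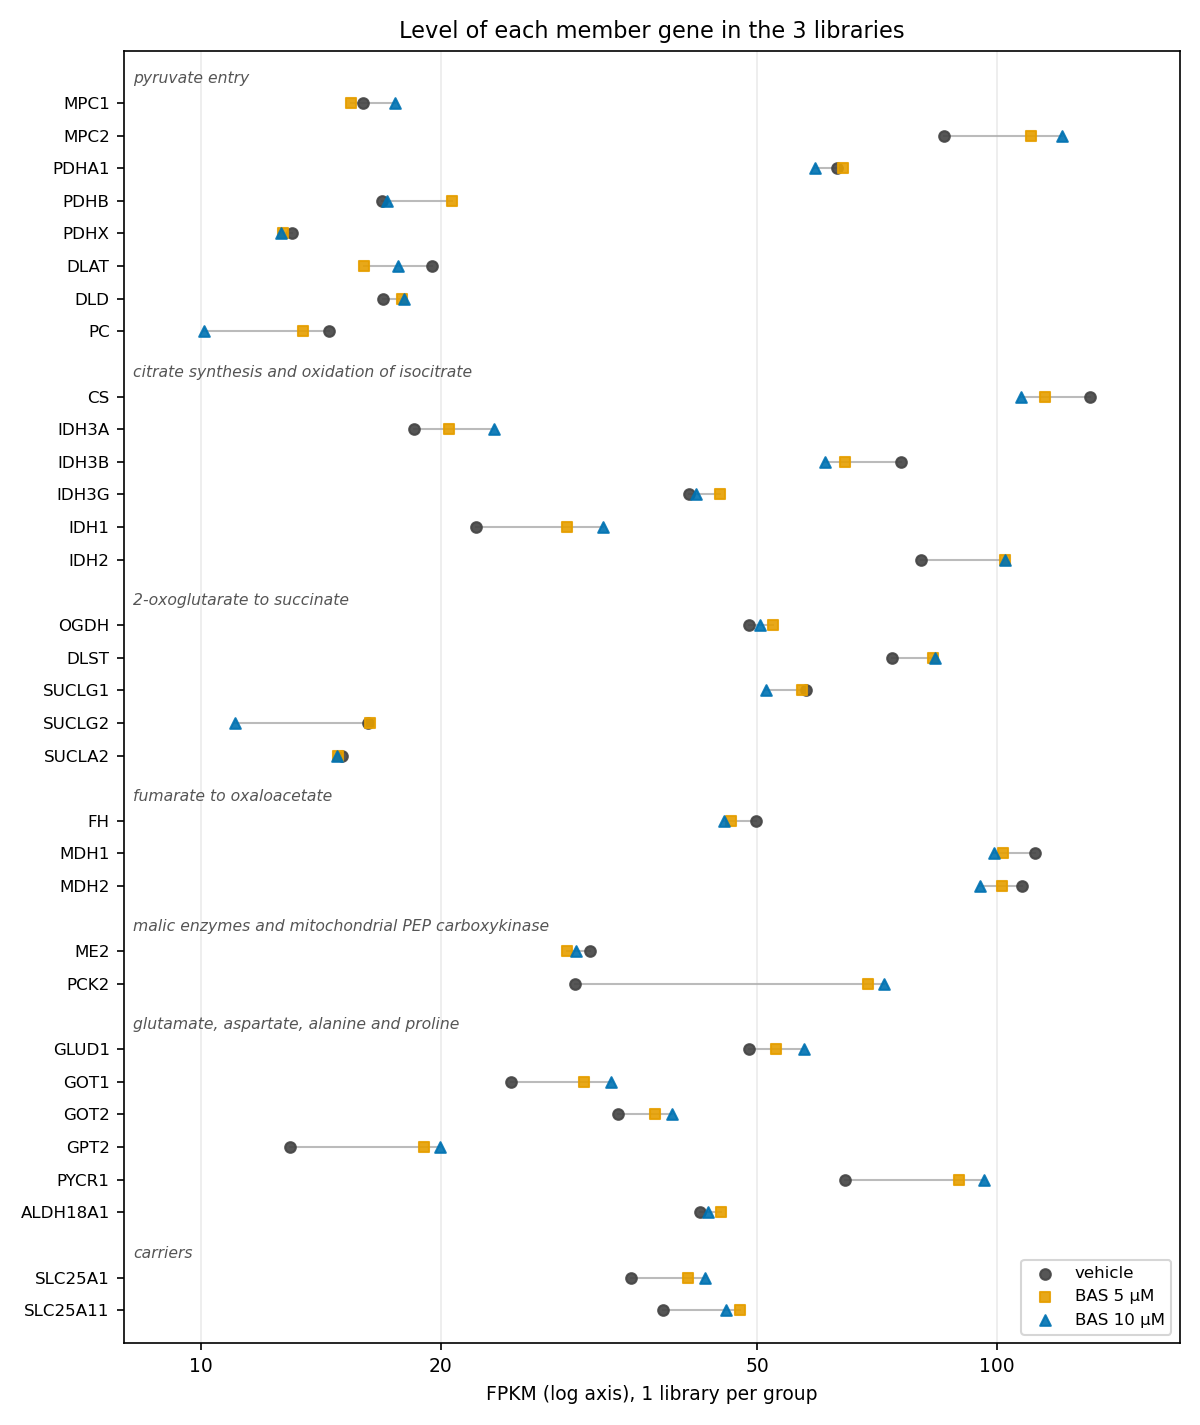
FPKM of the 32 member genes above the filter, on a log axis, in the vehicle (circle), 5 µM (square) and 10 µM (triangle) library, 1 library per group, grouped by role, with a line joining the lowest and highest value. PCK2 has the widest gap, from 29.49 to 72.20 FPKM, while the 3 points of most genes lie close together.

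At 5 µM, 1 of the 32 members (PCK2) was at least 2-fold higher than vehicle and 0 were at least 2-fold lower. Over all genes compared, 0.539% were 2-fold higher and 0.208% were 2-fold lower. The member median was 0.09 and that of all genes 0.02. As deposited, 20 members were above vehicle and 12 below, so that 62.5% were above, against 53.2% of all genes. Under other scalings, 18 or 19 members were above. The median of all genes was then 0.002 after median-ratio scaling, −0.03 after rescaling to a common total and −0.007 after quantile normalization. On a 1.5-fold limit the counts were also 1 (PCK2) and 0, where 3.01% of all genes were higher and 1.6% lower. At 10 µM, PCK2 was again the 1 member that was 2-fold higher and 0 were 2-fold lower, where 1.31% and 0.643% of all genes were called. The medians at that dose were 0.04 for the members and 0.05 for all genes. As deposited, 19 members were above and 13 below, so that 59.4% were above, against 56.5% of all genes. After median-ratio scaling or quantile normalization, 15 members were above and 17 below. The median of all genes also fell there, to −0.006 and −0.007. The shares of all genes above vehicle are for the deposited scaling only. Both doses are set against the same vehicle library, so their values are not independent.

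**Figure D2:**
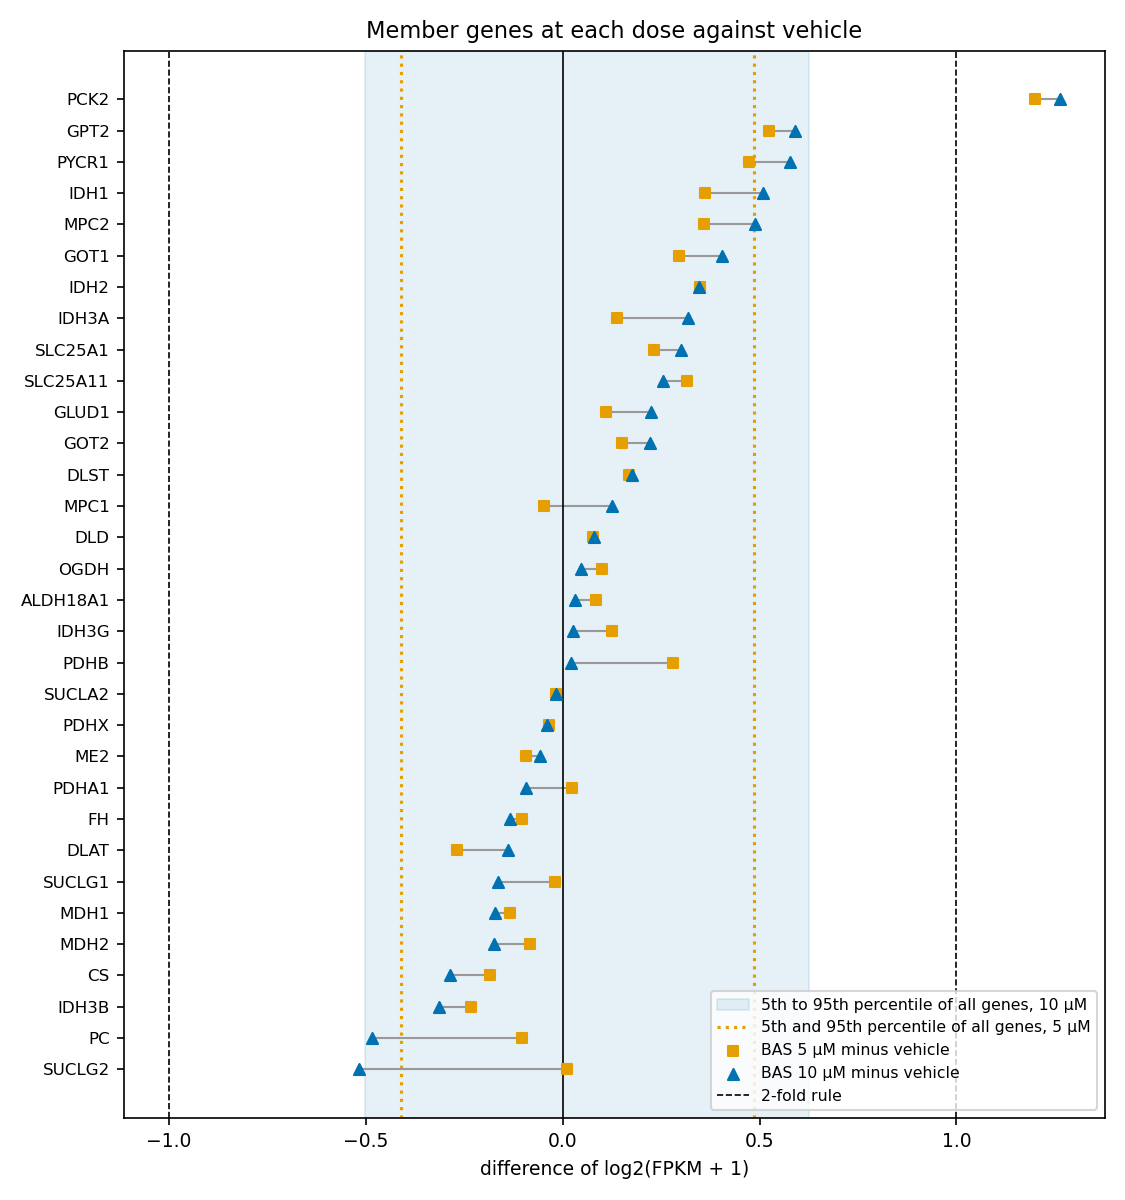
Difference of log2(FPKM + 1) from vehicle for each of 32 member genes at 5 µM (squares) and 10 µM (triangles), ordered by the 10 µM value, with the 5th to 95th percentile of all 11512 genes at 10 µM shaded and at 5 µM dotted, and the 2-fold rule dashed. PCK2 lies beyond the rule at both doses, and 30 of the other genes lie inside the shaded range at 10 µM, with SUCLG2 just below it at −0.52.

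The largest difference was in PCK2, the mitochondrial PEP carboxykinase that turns oxaloacetate into phosphoenolpyruvate. It was at 29.49, 68.99 and 72.20 FPKM. Both treated libraries lay far above vehicle and close to each other. The plain ratios were 2.34 and 2.45, and the log2 differences 1.20 and 1.26. Of all genes compared, 0.417% had a larger absolute difference at 5 µM and 0.808% at 10 µM. No 50-base sequence of its longest coding transcript is found in a transcript of another gene. In the order of levels among the 33 members, PCK2 stood at rank 20 with vehicle and at rank 8 with either dose.

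PC, pyruvate carboxylase, forms oxaloacetate, the compound that PCK2 uses. PC was at 14.49, 13.41 and 10.08 FPKM. The 10 µM library was the low one, at 0.70 times vehicle and 0.75 times the 5 µM level. Of all genes compared, 4.05% had a larger absolute difference between the doses. The ratio of PCK2 to PC within a library, which a constant factor per library cannot change, was 2.04, 5.14 and 7.16. The remaining gene of this branch, ME2, which turns malate into pyruvate, was at 30.83, 28.84 and 29.60 FPKM.

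**Figure D3:**
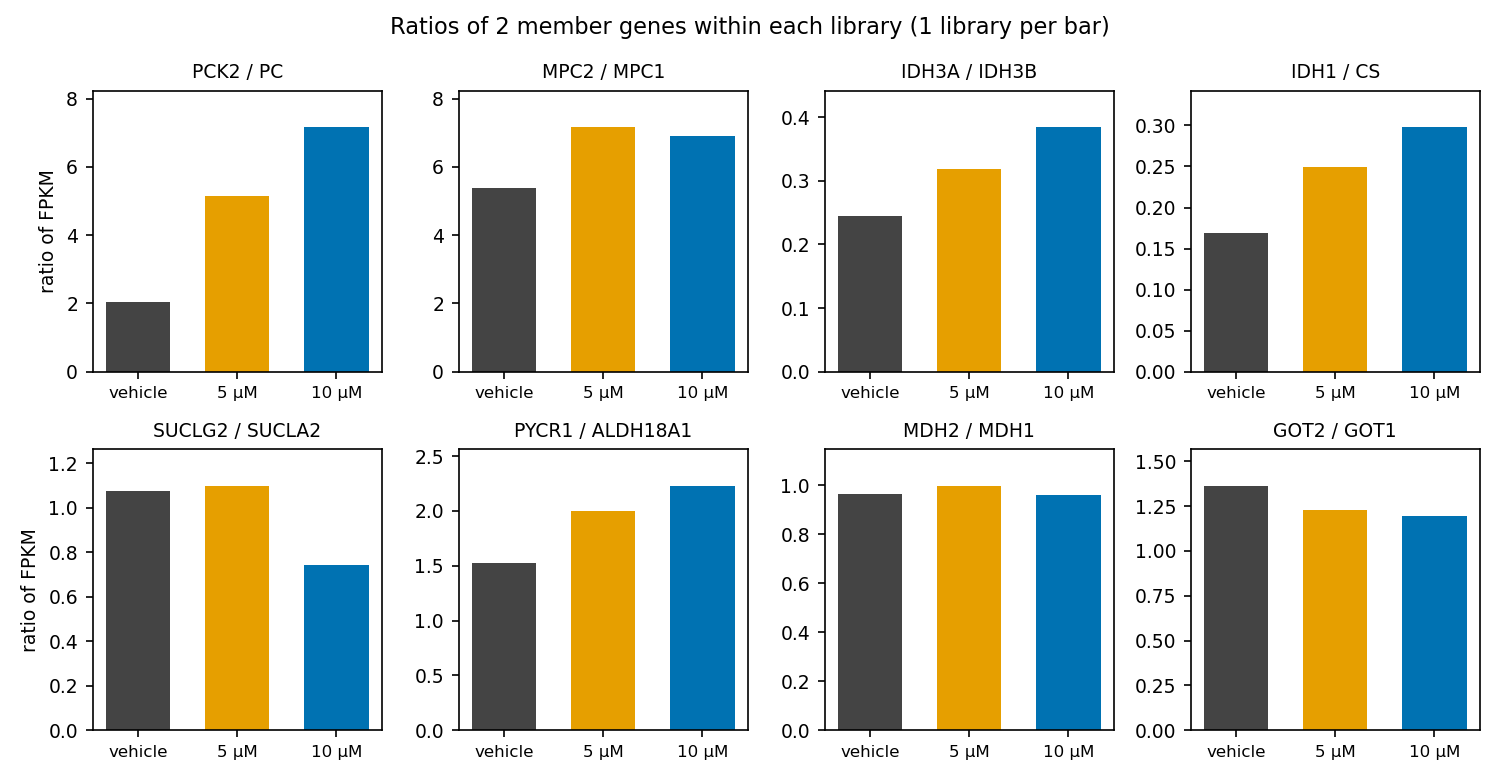
Ratio of the FPKM of 2 member genes within each library, on linear axes from 0, 1 library per bar. PCK2 over PC went from 2.04 to 7.16, IDH3A over IDH3B from 0.24 to 0.38, and SUCLG2 over SUCLA2 differed at 10 µM, while MDH2 over MDH1 stayed between 0.96 and 1.00.

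All 6 genes that exchange cycle carbon with glutamate, aspartate, alanine and proline were above vehicle at both doses. Of all genes, 53.2% were above vehicle at 5 µM and 56.5% at 10 µM. The 6 genes had medians of 0.22 and 0.31 at 5 and 10 µM, and 0 of 6 were 2-fold higher. At 10 µM ALDH18A1 was below vehicle after median-ratio scaling or quantile normalization. Their summed level was 226, 274 and 289 FPKM. GPT2, the mitochondrial alanine transaminase, was at 12.94, 19.03 and 19.98 FPKM. Both doses were above vehicle, 1.47-fold and 1.54-fold, and near each other. GPT2 was the 1 other member past a 1.5-fold limit on the log2 scale at 10 µM, a limit that 6.04% of all genes passed upward and 3.44% downward, with 0 members downward. Its log2 difference of 0.59 was just past that limit, and was short of it under the other scalings, at 0.53 with median ratios, 0.54 with quantiles and 0.58 with a common total.

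Proline is made from glutamate in sequence by ALDH18A1, which forms the pyrroline-5-carboxylate precursor, and by the reductase PYCR1. PYCR1 was at 64.40, 89.79 and 96.58 FPKM, with log2 differences of 0.47 and 0.58 from vehicle. ALDH18A1 was at 42.37, 45.02 and 43.32 FPKM, a difference of 0.03 at 10 µM. The ratio of PYCR1 to ALDH18A1 was thus 1.52, 1.99 and 2.23. Of the 50-base sequences of PYCR1, 19.3% are shared with an annotated transcript on the opposite strand, and the libraries are not stated to keep strand, so part of its reads could come from there.

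The aspartate transaminases interconvert oxaloacetate and aspartate in the cytosol (GOT1) and the mitochondrion (GOT2). GOT1 was at 24.52, 30.32 and 32.79 FPKM, 1.24-fold and 1.34-fold over vehicle. It holds the motif shown above, as SLC25A11 does, and 20.9% of its 50-base sequences are shared with an opposite-strand transcript. GOT2 was at 33.43, 37.20 and 39.12 FPKM, 1.11-fold and 1.17-fold over vehicle. The ratio of GOT2 to GOT1 was 1.36, 1.23 and 1.19. GLUD1, glutamate dehydrogenase, which releases ammonia from glutamate to give 2-oxoglutarate, was at 48.82, 52.75 and 57.21 FPKM. It shares 36.2% of its 50-base sequences with other genes, mainly GLUD2, which was at 0.05 to 0.06 FPKM, and SHLD2 on the opposite strand, at 14.20, 12.15 and 12.10 FPKM.

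The genes of fumarase and of the malate dehydrogenases lay the other way. FH, fumarase, was at 49.90, 46.35 and 45.42 FPKM. MDH1, the cytosolic malate dehydrogenase, was at 111.91, 101.92 and 99.25 FPKM. MDH2, its mitochondrial counterpart, was at 107.81, 101.68 and 95.41 FPKM. Each of these 3 genes was below vehicle at both doses under every scaling tried, and their sum was 0.93 and 0.89 times vehicle. FH and MDH1 were not lower at 10 µM than at 5 µM after rescaling to a common total. These are small differences: 55.7% of all genes had a larger absolute difference at 10 µM than MDH2. CS, which forms citrate, belongs with them by its values of 131.17, 115.21 and 107.39 FPKM, 0.88 and 0.82 times vehicle, although 19.4% of its 50-base sequences are found in other annotated transcripts.

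Of the isocitrate dehydrogenase genes, only IDH3B was below vehicle in the deposited scaling, at both doses. The NADP-dependent enzymes, which make NADPH and are not part of the classical cycle, were higher. IDH1, in the cytosol and peroxisomes, was at 22.18, 28.79 and 31.99 FPKM, 1.30-fold and 1.44-fold over vehicle. IDH2, in the mitochondrion, was at 80.28, 102.47 and 102.35 FPKM, 1.28-fold and 1.27-fold over vehicle. The NAD-dependent enzyme of the cycle is built from a catalytic subunit, IDH3A, with IDH3B and IDH3G. IDH3B was at 75.81, 64.42 and 60.80 FPKM, 0.85 and 0.80 times vehicle. IDH3G was at 41.07, 44.89 and 41.88 FPKM. IDH3A was at 18.52, 20.49 and 23.35 FPKM, the least abundant of the 3 in every library. The ratio of IDH3A to IDH3B was 0.24, 0.32 and 0.38. IDH3A is uncertain, since 62.8% of its 50-base sequences are shared with the opposite-strand gene ACSBG1, itself listed at 0.05 to 0.13 FPKM. CIB2, which also overlaps it on the opposite strand, was at 5.35, 7.83 and 6.44 FPKM, above vehicle at both doses as IDH3A was, and its part in the IDH3A values was not tested. The ratio of IDH1 to CS was 0.17, 0.25 and 0.30.

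Between 2-oxoglutarate and succinate, 4 of 5 genes lay within 0.2 of vehicle on the log2 scale at both doses. Of all genes, 58.0% lay within 0.2 of vehicle at 5 µM and 49.3% at 10 µM. OGDH, the catalytic subunit of the 2-oxoglutarate dehydrogenase complex, was at 48.80, 52.36 and 50.42 FPKM, and DLST, its succinyltransferase core, at 73.92, 83.21 and 83.72 FPKM. Succinyl-CoA synthetase pairs the shared subunit SUCLG1 with either SUCLG2, which makes GTP, or SUCLA2, which makes ATP. SUCLG1 was at 57.68, 56.94 and 51.34 FPKM, and SUCLA2 at 15.02, 14.84 and 14.83 FPKM. SUCLG2 was at 16.18, 16.32 and 11.01 FPKM. Vehicle and 5 µM were alike and the 10 µM library stood below both, at 0.67 times the 5 µM level. Of all genes, 1.28% had a larger absolute difference between the doses, and SUCLG2 had the largest of the members, −0.53. The ratio of SUCLG2 to SUCLA2 was 1.08, 1.10 and 0.74. A pseudogene, SUCLG2P2, shares 17.3% of the 50-base sequences of SUCLG2.

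Pyruvate enters through a carrier of 2 subunits, MPC1 and MPC2, and is oxidised to acetyl-CoA by the pyruvate dehydrogenase complex. MPC2 was at 85.81, 110.38 and 120.87 FPKM, 1.29-fold and 1.41-fold over vehicle. MPC1 was at 15.95, 15.41 and 17.50 FPKM, and the ratio of MPC2 to MPC1 was 5.38, 7.16 and 6.91. DCAF6, which overlaps 22.5% of the exon bases of MPC2 on the opposite strand, was at 41.99, 37.45 and 33.07 FPKM. Its part in the MPC2 values was not tested. In the dehydrogenase complex, PDHA1, the catalytic alpha subunit, was at 63.02, 64.09 and 59.07 FPKM. PDHB, the beta subunit, was at 16.85, 20.69 and 17.13 FPKM, with the 5 µM library alone standing apart. DLAT, the acetyltransferase core, was at 19.52, 16.03 and 17.65 FPKM, lowest at 5 µM. PDHX, which tethers the DLD subunit, and DLD, which the complex shares with that of OGDH, differed by less than 0.1 on the log2 scale at both doses.

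Both carriers were above vehicle at both doses. SLC25A1, the citrate carrier, was at 34.68, 40.93 and 42.96 FPKM. SLC25A11, the carrier of 2-oxoglutarate and malate, was at 38.08, 47.63 and 45.65 FPKM, 1.25-fold and 1.20-fold over vehicle. RNF167, the opposite-strand neighbour whose transcripts share 10.6% of its 50-base sequences, was at 59.67, 77.77 and 83.53 FPKM, also above vehicle, and its part in the SLC25A11 values was not tested.

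Between the doses, 0 of 32 members differed 2-fold in either direction, where 0.0434% of all genes were 2-fold higher at 10 µM and 0.0434% lower. The member median was 0.00 and that of all genes 0.04, and 29 of 32 members lay within 0.2 of the 5 µM level, against 78.9% of all genes. The 3 beyond 0.2 in the deposited scaling were SUCLG2, PC and PDHB, all lower at 10 µM. After rescaling to a common total, MPC1 and IDH3A were also beyond 0.2, both higher at 10 µM, by 0.21 and 0.22. In the deposited scaling, 12 members were higher at each step (37.5%, against 32.9% of all genes) and 9 were lower at each step (28.1%, against 20.8%).

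The neighbours of these genes in the pathway gave 1 of 45 compared genes 2-fold higher at each dose and 0 lower, where 0.539% and 1.31% of all genes were higher and 0.208% and 0.643% lower. That gene was ASNS, asparagine synthetase, which consumes aspartate and is a classical ATF4 target, at 75.40, 192.11 and 240.05 FPKM. The list medians were 0.05 and 0.07, beside 0.02 and 0.05 over all genes. ASS1, which also consumes aspartate, was at 114.87, 201.03 and 192.04 FPKM. SDHA, the catalytic subunit of succinate dehydrogenase, was at 129.18, 127.41 and 111.91 FPKM, and SDHAF4, an assembly factor of that complex, at 6.90, 4.50 and 3.16 FPKM. PDK1, a kinase that switches off pyruvate dehydrogenase, was at 6.81, 9.02 and 12.54 FPKM, and LDHB, a lactate dehydrogenase subunit, at 758.00, 638.84 and 529.69 FPKM. Among carriers, SLC25A10, which exchanges dicarboxylates, was at 15.46, 22.63 and 27.96 FPKM, and SLC25A12, an aspartate and glutamate carrier, at 8.85, 6.32 and 4.96 FPKM.

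The members, set here beside other mitochondrial and amino acid genes, had medians of 0.09 at 5 µM and 0.04 at 10 µM. Those of all genes were 0.02 and 0.05. The 40 genes with complex I subunit symbols had medians of 0.02 at 5 µM and −0.06 at 10 µM, and the 78 mitochondrial ribosomal protein genes 0.05 and 0.01. The 1 complex I symbol that was 2-fold higher, NDUFA4L2, is named for its likeness to NDUFA4 and was at 2.45, 6.15 and 6.87 FPKM. The 9 enzymes that make serine and carry its carbon unit had medians of 0.61 and 0.70, with 0 genes 2-fold higher, PSAT1 at 76.41, 132.83 and 140.56 FPKM, and 5 of 9 past the 1.5-fold limit at each dose. For the members that count was 1 of 32 at 5 µM and 2 of 32 at 10 µM, near the 3.01% and 6.04% of all genes. With 1 library per group these differences between lists have no test.

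**Figure D4:**
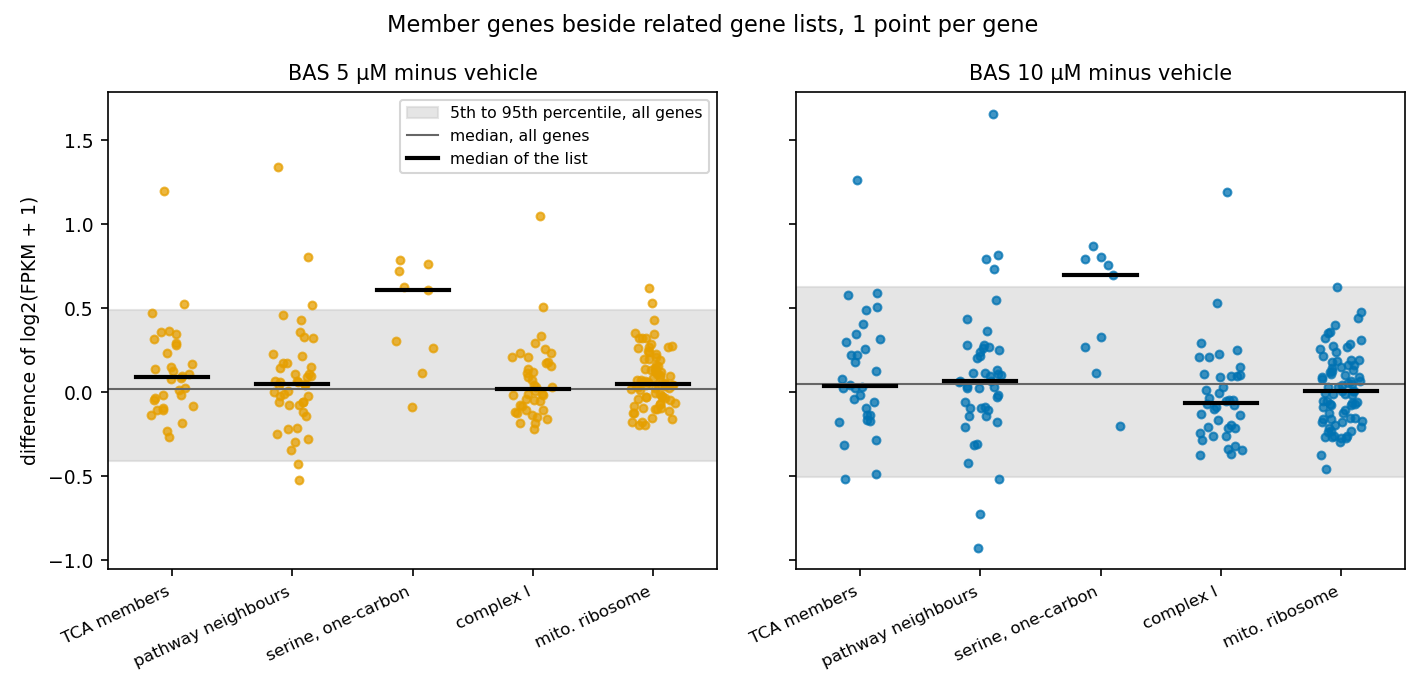
Difference of log2(FPKM + 1) from vehicle at 5 µM (left) and 10 µM (right), 1 point per gene, for the member genes, their pathway neighbours, serine and folate carbon enzymes, complex I symbols and mitochondrial ribosomal proteins, with list medians as black bars and the 5th to 95th percentile of all genes shaded. The member median (0.09 and 0.04) lies near that of all genes and PCK2 stands apart at the top of its column.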

How the data were processed

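The authors deposited 1 file per library with a value for each gene symbol, in FPKM per the file headers. Per the submitters' processing notes, the build was hg19 and the tools were BWA, Bowtie2, Trim Galore, Cuffdiff and Cufflinks. The role and version of each, the gene annotation and how libraries were scaled to each other were not given in the sources used here. Reads were single-end, of 50 bases, per the labels' protocols. The headers of the treated columns read ASB85 and ASB810, so the doses of BAS rest on the labels alone.

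Symbols listed in more than 1 row (2, none a member) were summed. Differences are of log2(FPKM + 1) among genes averaging 1 FPKM or more. Members and lists were chosen with earlier results of these data known. Named in detail are the 12 members furthest from vehicle at 10 µM, subunit and isozyme partners, and, of other lists, genes past the 2-fold rule or among the largest differences; the within-library ratios, the low markers and GLUD2, ACSBG1 and the other opposite-strand genes were chosen after values were seen. Shared 50-base sequences and exon overlaps came from GENCODE 29 (GRCh38), matched by symbol; promoters came from RefSeq (GRCh38.p14), with 30 of 33 members matched. Alternatives were other pseudocounts, filters, fold limits, scalings and the mean. The steps were tested on simulated data. Calculations used Python 3.11.15, numpy 2.4.6 and pandas 2.3.3.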

Additional observations from a re-analysis of the deposited data

How the results depend on the processing

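PCK2 was past the 2-fold rule at both doses with each other scaling (median-ratio, common total, quantile), with a filter at 5 FPKM or none, and with a pseudocount of 0.5 or 0.1. At a fold limit of 4, 0 members were called higher at 5 µM and 0 at 10 µM, and at a limit of 1.5, 2 were higher at 10 µM, of which GPT2 was not past that limit under any of the 3 other scalings. With a limit of 4, 0.0261% and 0.156% of all genes were higher at 5 and 10 µM. Every median over members moved by at most 0.1, the tolerance used in place of a replicate spread. That tolerance is larger than the medians themselves, and some changed sign within it. The member median at 10 µM against vehicle was −0.02 with median ratios and −0.03 with quantiles, beside −0.006 and −0.007 over all genes. The member median between the doses was 0.04 with a common total, beside 0.07 over all genes. Scaling and pseudocount moved a single member by at most 0.08. PDHB, IDH3G, OGDH and ALDH18A1 at 10 µM, and PDHA1 and SUCLG2 at 5 µM, changed sign against vehicle under at least 1 scaling. No paired analysis was possible because each group has 1 library. Leaving out a replicate was not possible for the same reason. The unknown depth leaves counting error unmeasured, which bears most on the genes near 10 FPKM, such as PC and SUCLG2.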
